A study of Mus musculus with 24 samples.

Results

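This section compares the lungs of mice that breathed diesel exhaust and were given pirfenidone (DE+PFD, 3 libraries) with the lungs of healthy control mice (C, 3 libraries), 6 of the 24 libraries of the study. All animals were male C57BL/6 mice, bought when 6 weeks old and aged 20 weeks at the end. Their age at the start of the interventions was 8 weeks and their starting weight 23 g. The controls received neither exhaust nor drug. The DE+PFD mice inhaled exhaust for 30 min a day, 5 days a week, over about 8 weeks, and received pirfenidone by mouth at 300 mg per kg a day, 6 days a week, in 0.5% carboxymethylcellulose. The DE group (3 libraries, exhaust without pirfenidone) was used for the test of where DE+PFD and DE differed. The other 5 groups combine exhaust, pirfenidone and remote ischemic conditioning (RIC, brief cycles of blocked blood flow in a limb), in the order their names give, or received RIC alone, and they entered the fit. No group given carboxymethylcellulose alone is labelled, so in DE+PFD against C the exhaust, the drug and its vehicle cannot be told apart.

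Diesel exhaust carries soot and polycyclic hydrocarbons that reach the alveoli and can injure the epithelium, draw in inflammatory cells and lead to deposition of collagen. Pirfenidone is an oral drug used against pulmonary fibrosis, and is known to lower collagen production and signalling by TGF-beta, although its direct target is not settled. The comparison with healthy lungs asks how far the treated lungs still differed from tissue that had never been exposed.

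Total counts were 15975293, 7789841 and 8882332 in C 1, C 2 and C 3, and 14356904, 3906807 and 9446217 in DE+PFD 1, 2 and 3. Replicate 1 of both groups carries a March date in its label and replicates 2 and 3 an October date, so both groups had 1 March and 2 October libraries, whereas the DE libraries were all from October. Lung markers were high in all 6 libraries: surfactant protein gene Sftpc reached 17806 to 30855 CPM (counts scaled to library size), the club cell gene Scgb1a1 26961 to 49652, the alveolar type 1 gene Ager 2167 to 4194, the endothelial gene Pecam1 678 to 869 and the alveolar macrophage gene Marco 12.7 to 50.2. Several libraries stood apart before any comparison. C 1 was low in muscle genes, with 361 CPM summed over 15 genes of pulmonary vein cardiac muscle against 1624 and 1025 in C 2 and C 3. DE+PFD 1 and 2 held 11.8% and 6.59% of their counts in 16 genes that rise and fall with Lars2, described below, against 0.642% in DE+PFD 3 and 0.214% to 0.437% in C. DE 1 was high in lymphoid and fat genes, with 3438 CPM over 13 adipocyte genes against 361 and 907 in DE 2 and DE 3. The labels do not say more of the animals behind the libraries, so p-values measure the spread between these samples, which may be technical.

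No gene separated DE+PFD lungs from healthy lungs at the threshold. In edgeR's quasi-likelihood test over 17490 genes, 0 genes (0% of those tested) had a Benjamini-Hochberg adjusted p under 0.05, and the adjusted p was 1.00 for all genes named here. At an unadjusted p under 0.05 there were 350 genes, of which 181 (1.03%) were on the higher side in DE+PFD and 169 (0.966%) on the lower side. In 643 genes (3.68%) all 3 DE+PFD libraries lay above all 3 C libraries, and in 628 (3.59%) all lay below. The log2 fold change was above 0 in 49.6% of genes and had a median of -0.0019. DE+PFD against DE also gave 0 genes (0%), as did DE against C (0%). Among alternatives, the same test without the filter on low counts called 98 genes, 80 on the higher side and 18 on the lower side, and DESeq2 called 5, all lower and none among the 17490 genes. Of the genes given below, those called without the filter include Hspa8, Hsp90aa1, Hspa1a, Hspa1b, Hsph1, Gbp2, Tgtp2, Zbp1, Lars2, Nr1d1, Nr1d2, Dbp, Krt5, Krt15, Cidec, Thrsp, Cfd, Adipoq, Tpsb2, Ighg2c and Ighg3. Some of these calls came despite a wide spread between replicates. Lars2 had an unadjusted edgeR p of 1.80e-42 without the filter (log2 fold change 4.07) and 0.00558 in the main test (4.11). Its DE+PFD libraries were at 6801, 3411 and 291 CPM. No statement below rests on the calls made without the filter. In what follows, a value is the level in each library on the CPM scale or a log2 fold change with its standard error, and none of the genes passed the test.

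Among 56 gene lists for cell types and responses, the heat shock chaperones had the largest share of genes in which healthy and treated lungs did not overlap. These proteins hold unfolded clients, pass them between the Hsp70 and Hsp90 machines and are switched on together by the transcription factor Hsf1. All 20 listed genes were tested. All 20 had a log2 fold change above 0, against 49.6% of all genes, with a median of 0.77. In 14 of 20 (70%) the 3 DE+PFD libraries lay above the 3 C libraries, against 3.68% of all genes, and 9 of 20 had an unadjusted p under 0.05, against 1.03%. Leaving out C 1 or DE+PFD 2 gave 19 genes that did not overlap, leaving out DE+PFD 1 gave 15, and leaving out any of the other 3 libraries gave 14, with 6.23% to 12.7% of all genes on that side. In the March pair alone 19 of 20 genes were above 0, against 48.1% of all genes, with a median difference of 0.67, and in the October libraries 20 of 20, against 50.2%, with a median of 0.86.

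Hspa8, the constitutive cytosolic Hsp70, was at 1194, 871 and 763 CPM in C and at 2523, 1809 and 2190 CPM in DE+PFD. The highest control lay well below the lowest treated library. Its log2 fold change of 1.22 ± 0.32 had the smallest unadjusted p of the genes named on the higher side (0.00128, edgeR). Fkbp4, an Hsp90 co-chaperone that matures steroid receptors, was at 255, 225 and 213 CPM in C and at 391, 403 and 379 CPM in DE+PFD, a difference of 0.77 ± 0.29 (unadjusted p 0.0151, edgeR). Hsp90aa1, the inducible Hsp90, was at 513, 351 and 324 CPM in C and at 982, 686 and 861 CPM in DE+PFD, with 1.11 ± 0.46 (unadjusted p 0.0274). In all 3 genes the lowest treated library exceeded the highest control. Hsp90ab1, the constitutive Hsp90, had 1299 to 1435 CPM in C and 2209 to 2380 CPM in DE+PFD. The Hsp90 co-chaperones Ahsa1 (77.0 to 85.1 against 117 to 143 CPM) and Stip1 (83.9 to 111 against 166 to 189 CPM) were arranged in the same way, as was the Hsp40 gene Dnaja1 (114 to 215 against 276 to 389 CPM). Hsph1, an exchange factor of Hsp70, had 38.6 to 75.8 CPM in C and 123 to 206 CPM in DE+PFD. The inducible Hsp70 genes Hspa1a (21.3 to 50.9 against 61.1 to 112 CPM) and Hspa1b (19.5 to 63.0 against 94.3 to 150 CPM) are near-identical copies, so the split of reads between them is uncertain. The mitochondrial pair Hspd1 and Hspe1 had log2 fold changes of 0.56 ± 0.28 and 0.66 ± 0.36, and Cryab, a small heat shock protein of muscle, had 0.12 ± 0.36.

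**Figure D1:**
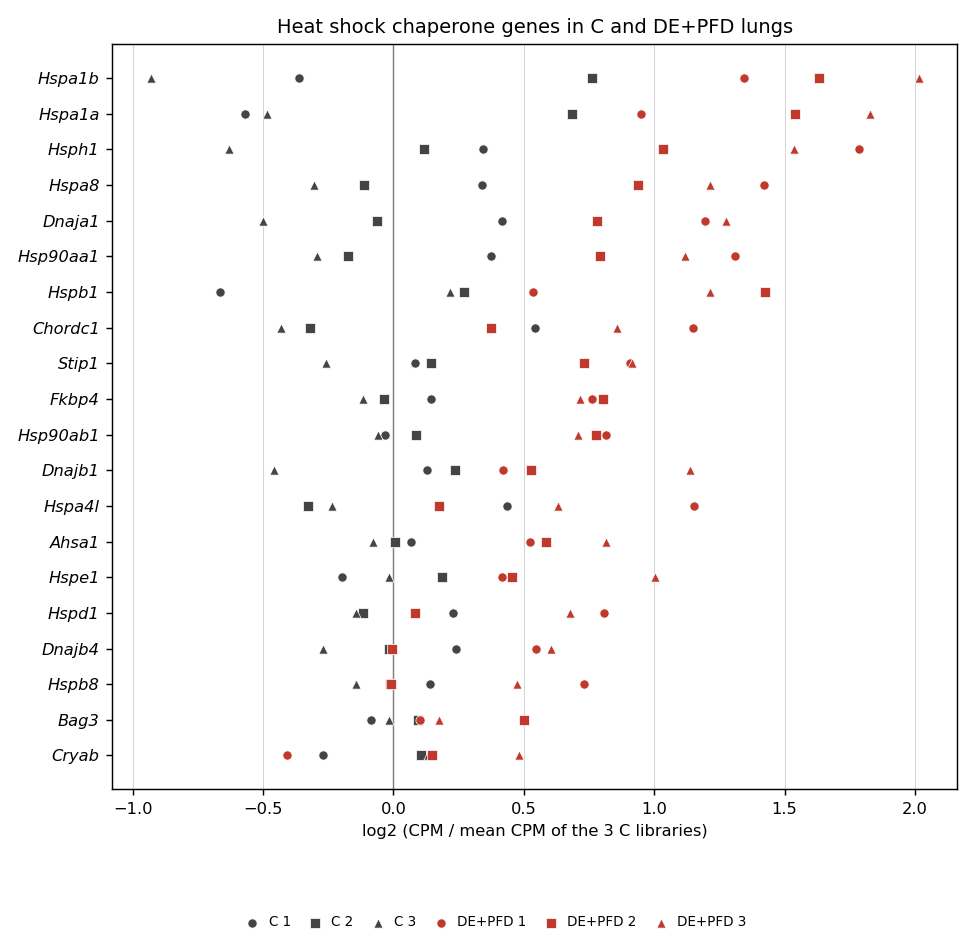
Each row is 1 of 20 heat shock chaperone genes, ordered by fitted fold change, and each point is a library; the horizontal axis is the log2 ratio of its CPM to the mean CPM of the 3 C libraries. Red points (DE+PFD) lie to the right of all dark points (C) in 14 rows, and the groups overlap in Hspd1, Dnajb4, Hspb8, Cryab, Chordc1 and Hspa4l.

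Against DE, the chaperones had a median log2 fold change of 0.19 with 14 of 20 above 0 (49.1% of all genes) and none past the threshold. DE against C, which shares the C libraries with the main contrast, had a median of 0.61 with 19 of 20 above 0 (49.9% of all genes). Hspa8 was at 1074, 1434 and 1924 CPM in DE 1, 2 and 3, between the other 2 groups and overlapping both, and differed by 0.40 ± 0.33 between DE+PFD and DE. The mean Hspa8 level over the 8 groups ran in the order C (943 ± 224 CPM, SD, n = 3), RIC+DE (1233 ± 308), DE+RIC (1338 ± 72.8), RIC (1454 ± 368), DE (1477 ± 427), RIC+DE+PFD (1867 ± 239), DE+PFD+RIC (2150 ± 1269) and DE+PFD (2174 ± 358). The 3 groups given pirfenidone thus held the 3 highest means, but DE+PFD+RIC ran from 1010 CPM in replicate 3 to 3518 CPM in replicate 1, and these neighbours did not differ beyond their spread. Hspa8 was named for its small p in DE+PFD against C, so the places of C and DE+PFD follow in part from that choice. The means are not adjusted for the label date, and this order over all 8 groups was not tested.

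Promoters of many chaperone genes are known to carry the binding site of Hsf1, the heat shock element, built from alternating blocks of 3 bases. RefSeq promoters (GRCm38.p6, 250 bases before to 50 after the gene start) were found for 16 of the 20 genes, and Hspa8 and Hsp90aa1 were not among them. The 3-block element GAANNTTCNNGAA, or TTCNNGAANNTTC on the other strand, occurred in 4 of the 16 (25%), Hsph1, Hspd1, Hspe1 and Chordc1, against 0.662% of 27025 genes with a promoter of the same length. Chordc1 encodes a zinc-binding partner of Hsp90. The promoters of Hsph1 (chr5:149636287-149636586, minus strand) and Chordc1 (chr9:18292017-18292316, plus strand) are shown because 1 holds a single element and the other 3 overlapping ones; capitals mark the matches, which begin 36 bases after the start of Hsph1 and 4 bases before the start of Chordc1.
Hsph1: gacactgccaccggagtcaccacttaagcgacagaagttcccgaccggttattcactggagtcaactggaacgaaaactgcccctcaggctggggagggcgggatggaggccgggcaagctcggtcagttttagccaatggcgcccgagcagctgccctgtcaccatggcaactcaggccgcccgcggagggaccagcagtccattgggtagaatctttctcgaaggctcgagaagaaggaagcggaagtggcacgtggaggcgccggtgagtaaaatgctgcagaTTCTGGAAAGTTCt
Chordc1: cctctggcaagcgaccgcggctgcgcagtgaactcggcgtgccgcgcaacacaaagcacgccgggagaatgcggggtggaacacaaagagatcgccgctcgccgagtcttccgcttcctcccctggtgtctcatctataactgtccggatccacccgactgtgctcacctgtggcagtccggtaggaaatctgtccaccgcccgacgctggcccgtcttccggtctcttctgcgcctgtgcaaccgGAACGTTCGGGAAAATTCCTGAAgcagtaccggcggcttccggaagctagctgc

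Chaperones of the endoplasmic reticulum lay above the controls by less. The unfolded protein response raises folding enzymes and the sensor-bound chaperone BiP when secretory proteins misfold. Of 20 genes tested, 18 were above 0, with a median log2 fold change of 0.39, and in 9 of 20 all DE+PFD libraries lay above all C libraries, against 3.68% of all genes. Pdia6, a protein disulfide isomerase, was at 233, 256 and 248 CPM in C and at 366, 313 and 368 CPM in DE+PFD (0.50 ± 0.19, unadjusted edgeR p 0.0140). Hspa5, which encodes BiP, was at 524, 500 and 466 CPM in C and at 1019, 647 and 846 CPM in DE+PFD (0.75 ± 0.32, unadjusted edgeR p 0.0304). Creld2, a secreted stress protein, was at 57.2, 65.5 and 65.9 CPM against 83.9, 97.1 and 90.1 CPM (0.52 ± 0.23, unadjusted edgeR p 0.0344). The C libraries were close to each other in all 3 genes and did not overlap DE+PFD. The others that did not overlap were Hsp90b1, the Hsp90 of this compartment (467 to 574 against 649 to 806 CPM), Calr, Manf, Hyou1, Xbp1 and Ddit3. The transcription factor Atf4 (0.13 ± 0.26), its targets Trib3 (0.10 ± 0.26) and Chac1 (-0.17 ± 0.43) and the degradation adaptor Sel1l (-0.07 ± 0.25) were near 0. Without C 1 the median was 0.28. Plasma cells make much of this machinery. Their own list lay below 0, as given further on, and the part of cell composition in these values was not tested. Against DE the median was 0.10 with 13 of 20 above 0.

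The ER stress response element, bound by Atf6 with NF-Y, was searched as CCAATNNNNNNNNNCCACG (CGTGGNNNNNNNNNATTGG on the other strand). It occurred in 6 of the 18 members with a RefSeq promoter (33.3%), Hspa5, Hsp90b1, Dnajc3, Creld2, Pdia6 and Calr, against 0.137% of all 27025. A match describes letters, not binding. Here and for the chaperone and interferon lists, the share depends on which genes were listed and not on the libraries. The promoters of Hspa5 (chr2:34771840-34772139, plus strand) and Pdia6 (chr12:17266339-17266638, plus strand), the members named above with the highest level and the smallest p, carry the element in capitals, beginning 65 and 98 bases before the start.
Hspa5: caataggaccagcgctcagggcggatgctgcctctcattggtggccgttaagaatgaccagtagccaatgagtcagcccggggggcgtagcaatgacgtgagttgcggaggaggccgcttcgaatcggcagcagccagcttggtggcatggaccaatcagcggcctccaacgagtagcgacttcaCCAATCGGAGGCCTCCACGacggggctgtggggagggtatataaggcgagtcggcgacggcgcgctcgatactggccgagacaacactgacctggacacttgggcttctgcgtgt
Pdia6: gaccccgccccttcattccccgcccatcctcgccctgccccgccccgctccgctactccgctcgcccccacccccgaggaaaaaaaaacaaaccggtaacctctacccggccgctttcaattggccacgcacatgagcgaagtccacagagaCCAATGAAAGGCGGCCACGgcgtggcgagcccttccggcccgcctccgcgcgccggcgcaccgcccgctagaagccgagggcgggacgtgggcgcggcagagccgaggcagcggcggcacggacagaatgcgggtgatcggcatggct

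Matrix genes, the usual readout of fibrosis, had list medians from -0.10 to 0.12, with standard errors of 0.38 for Col1a1 and 0.35 for Col3a1. Medians in the March pair and over the October libraries were 0.51 and -0.05 for matricellular proteins and 0.39 and -0.09 for proteases and inhibitors. They were 0.29 and -0.0025 for fibrillar collagens and 0.16 and -0.19 for elastic fibre genes. For basement membrane (-0.07 and -0.15) and TGF-beta genes (-0.04 and -0.06) the dates lay closer. The list of fibrillar collagens and the enzymes that modify them had a median log2 fold change of 0.10, with 12 of 18 above 0. Col1a1, the main fibrillar collagen chain, was at 277, 386 and 371 CPM in C and at 199, 338 and 227 CPM in DE+PFD (-0.44 ± 0.38), and Col3a1 at 362, 456 and 386 against 480, 498 and 389 CPM (0.18 ± 0.35). Both overlapped. In 4 of 18 all DE+PFD libraries lay above all C libraries, against 3.68% of all genes: a collagen chaperone, prolyl hydroxylases and a minor chain. Serpinh1, the collagen chaperone Hsp47, was at 290, 418 and 296 CPM in C and at 579, 525 and 565 CPM in DE+PFD (0.72 ± 0.28, unadjusted edgeR p 0.0194). The prolyl hydroxylases P4ha1 (80.1 to 103 against 120 to 155 CPM, 0.66 ± 0.33) and P4ha2 (44.0 to 57.4 against 62.6 to 71.3 CPM, 0.38 ± 0.26) and Col5a2 (58.9 to 69.4 against 74.8 to 85.4 CPM) were the others. Against DE, Serpinh1 differed by 0.23 ± 0.29.

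In the list of TGF-beta ligands, receptors and targets 7 of 20 were above 0 and the median was -0.04. Tgfb1, the ligand most tied to fibrosis, was at 89.2, 153 and 123 CPM in C and at 71.4, 113 and 89.95 CPM in DE+PFD (-0.40 ± 0.20, unadjusted edgeR p 0.0539), lower within both the March and the October libraries although the groups overlap. The binding protein Ltbp3 (-0.28 ± 0.23) and the co-receptor Tgfbr3 (-0.32 ± 0.27) came next. Among matricellular proteins (median 0.10, 12 of 18 above 0), Ccn1 had -0.80 ± 0.47, Ccn2 -0.46 ± 0.30, Fn1 (fibronectin) -0.25 ± 0.31, and the small proteoglycan Lum, at 6.57 to 8.12 CPM in C and 8.29 to 19.1 CPM in DE+PFD, 0.95 ± 0.59. Proteases and their inhibitors had a median of 0.12, with Timp4 (2.48 to 3.03 against 4.69 to 5.22 CPM, 0.85 ± 0.41), Mmp3 (0.50 ± 0.30) and Mmp19 (0.45 ± 0.27) at the top, while Timp2 lay below the controls in all 3 libraries (615 to 655 against 477 to 575 CPM, -0.28 ± 0.17). Elastic fibre genes had a median of 0.00, with Ltbp4 at -0.51 ± 0.37, Lox at -0.33 ± 0.24 and Loxl4 at 0.50 ± 0.52. Basement membrane genes had 13 of 16 below 0 and a median of -0.10, led by Hspg2 (perlecan, -0.35 ± 0.24), Agrn (-0.27 ± 0.28) and Col4a5 (-0.17 ± 0.23). In smooth muscle and myofibroblast genes the median was 0.29, but it was -0.14 over the October libraries and 1.06 in the March pair, and C 1 was low: Acta2 was at 126 CPM in C 1, 435 and 463 CPM in C 2 and C 3, and 425, 364 and 457 CPM in DE+PFD. Cnn1 (26.8 to 88.3 against 96.6 to 102 CPM, 0.64 ± 0.36), Des (0.45 ± 0.31) and Pdgfrb (-0.38 ± 0.24) had the smallest p there.

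Interferon-induced genes were high in DE+PFD 1 and 2 and at control level in DE+PFD 3. The list of interferon-induced GTPases and gamma chemokines holds mainly proteins that attack vacuoles of intracellular microbes and chemokines that draw T cells, and the listed genes are induced by interferon gamma. Of 24 listed genes 17 passed the filter on low counts, and since genes can pass through the libraries in which they are high, a count over those tested is a description only. All 17 were above 0, with a median of 0.87, but in 0 of 17 did the groups separate (3.68% of all genes). Irgm1, an immunity-related GTPase, was at 89.9, 44.5 and 37.7 CPM in C and at 101, 159 and 48.0 CPM in DE+PFD (0.88 ± 0.34, unadjusted edgeR p 0.0186). Tgtp2, of the same family, was at 79.4, 23.4 and 18.8 against 120, 110 and 24.4 CPM (1.17 ± 0.45, unadjusted edgeR p 0.0187), and Irf1 at 183, 168 and 140 against 235, 307 and 175 CPM (0.54 ± 0.22, unadjusted edgeR p 0.0215). Gbp2, a guanylate-binding protein, was at 181, 74.7 and 85.1 against 241, 360 and 111 CPM. C 1 was thus high among controls and DE+PFD 3 low among treated libraries. Members of these families resemble each other closely, so counts of single members are uncertain.

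Without DE+PFD 3, 16 of the 17 genes lay above all C libraries, against 8.62% of all genes, and without C 1, 8 of 17 did, against 12.7%. DE+PFD 3 is the treated library at control level, so the first count follows in part from leaving it out. Without C 3, 1 of 17 did, against 6.37% of all genes. Without C 2, DE+PFD 1 or DE+PFD 2 it was 0 of 17, against 6.23%, 8.69% and 7.93%. Against DE, in which Gbp2 was at 82.5, 90.5 and 88.1 CPM, the median was 1.10 with 15 of 17 above 0 and none past the threshold. Gbp2 differed from DE by 1.42 ± 0.45, and Cxcl9, a chemokine of the list, by -1.09 ± 0.70, with 16.1 CPM in DE 1. Antiviral genes that respond to all interferons had 27 of 29 above 0 and a median of 0.31. Zbp1, a sensor of left-handed nucleic acid, was at 28.3, 17.9 and 12.6 CPM in C and at 41.1, 69.3 and 14.5 CPM in DE+PFD (1.06 ± 0.47). Rsad2 (viperin) had 0.60 ± 0.32 and Bst2 (tetherin) 0.53 ± 0.30, the latter at 114 to 124 against 128 to 224 CPM, while Ifit2 had -0.03 ± 0.25. All 19 tested genes of MHC class I presentation were above 0 with a median of 0.32; the immunoproteasome subunit Psmb9 was at 72.2, 78.3 and 73.4 against 94.7, 189 and 70.8 CPM (0.65 ± 0.36), H2-T23 had 0.50 ± 0.29 and H2-T22 0.42 ± 0.27. The level of the list, the median log2 deviation of its genes from their mean over 24 libraries, was highest of the 6 libraries in DE+PFD 2, the shallowest, for the GTPases (1.61) and MHC class I (0.96). For the antiviral genes it was highest in DE+PFD 1 (0.65, against 0.58 in DE+PFD 2).

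Il18bp, a secreted inhibitor of interleukin 18 that interferon gamma is known to induce, was among the 12 genes named on the higher side. It was at 8.49, 7.61 and 5.41 CPM in C and at 14.4, 19.5 and 9.25 CPM in DE+PFD (0.98 ± 0.29). All treated libraries exceeded all controls, including DE+PFD 3. It also lay above DE by 0.71 ± 0.30.

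**Figure D2:**
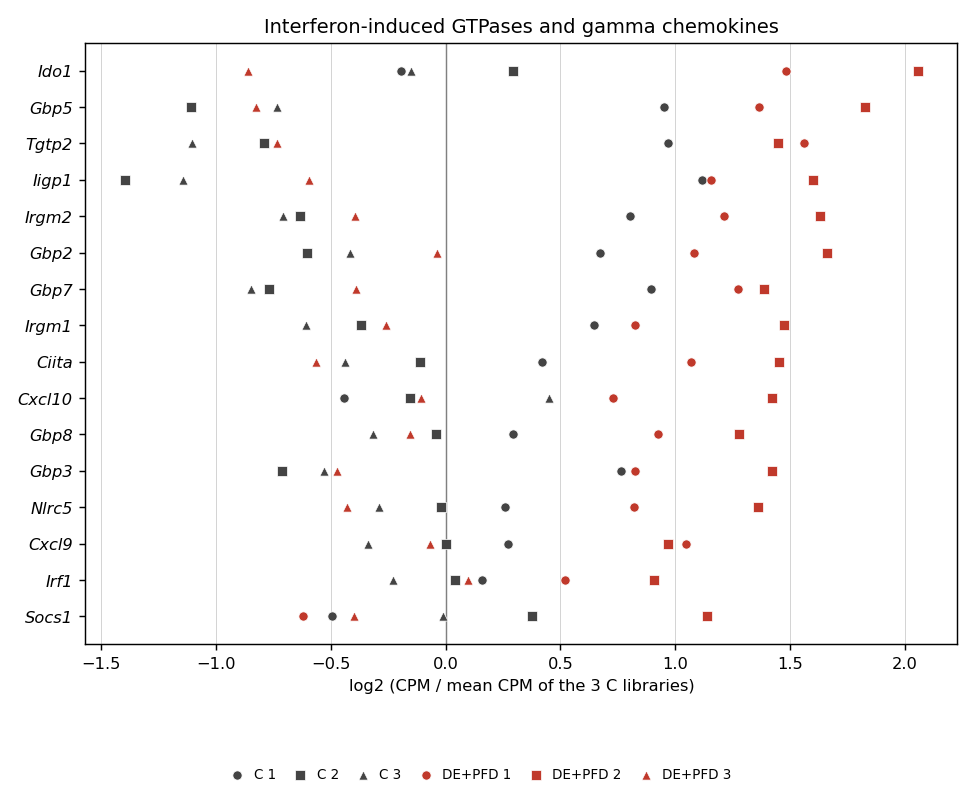
Rows are 16 of the 17 tested genes of the interferon-induced GTPase and chemokine list, ordered by fitted fold change, with the log2 ratio of each library's CPM to the mean of the 3 C libraries on the horizontal axis. DE+PFD 1 (red circles) and DE+PFD 2 (red squares) lie at the right in most rows, DE+PFD 3 (red triangles) lies near C 2 and C 3 in most rows, and C 1 (dark circles) lies between in most.

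The interferon-stimulated response element, searched as GAAANNGAAA (TTTCNNTTTC on the other strand), the core of a site bound by Irf1 and related factors, occurred in 9 of the 11 members with a RefSeq promoter (81.8%) against 3.99% of all 27025. The promoters of Gbp2 (chr3:142620413-142620712, plus strand) and Irgm1 (chr11:48871371-48871670, minus strand) show 1 match and 2 overlapping matches in capitals, beginning 59 and 30 bases before the start.
Gbp2: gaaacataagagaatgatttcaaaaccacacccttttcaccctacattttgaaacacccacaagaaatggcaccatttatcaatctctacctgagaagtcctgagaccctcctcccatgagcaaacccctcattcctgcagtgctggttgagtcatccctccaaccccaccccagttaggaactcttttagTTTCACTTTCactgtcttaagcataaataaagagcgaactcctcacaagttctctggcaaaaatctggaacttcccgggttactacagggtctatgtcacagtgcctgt
Irgm1: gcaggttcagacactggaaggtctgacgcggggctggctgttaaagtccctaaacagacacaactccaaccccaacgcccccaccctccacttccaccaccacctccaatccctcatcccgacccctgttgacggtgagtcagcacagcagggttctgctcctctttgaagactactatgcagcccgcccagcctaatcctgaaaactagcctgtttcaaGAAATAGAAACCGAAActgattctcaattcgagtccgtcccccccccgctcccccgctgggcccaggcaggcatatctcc

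The same 2 treated libraries shared other features. Of the 12 genes with the smallest p on the higher side, 5 (Lars2, Gphn, Cmss1, Camk1d and Cdk8) followed 1 profile over the 24 libraries. Lars2, the mitochondrial leucyl-tRNA synthetase, was at 229, 111 and 230 CPM in C and at 6801, 3411 and 291 CPM in DE+PFD, a fitted log2 fold change of 4.11 ± 1.32 that rests on DE+PFD 1 and 2. A search made after these values were seen found 16 genes, Lars2 included, whose log2 CPM correlated with Lars2 above 0.95 over 24 libraries, and 6 of them had no symbol. The most abundant of the 16, a gene without a symbol, was at 2645, 1146 and 2431 CPM in C. In DE+PFD 1, 2 and 3 it was at 85189, 43658 and 4353 CPM, so it held most of the share of the set. The share of all counts in the 16 genes was also high in RIC 2 (5.72%), RIC+DE+PFD 3 (4.88%) and DE+PFD+RIC 1 (1.66%). The interferon list did not follow it everywhere: its level stood at 1.18 in DE+PFD 1, at 1.61 in DE+PFD 2 and at 0.77 in RIC+DE+PFD 3, but at -0.34 in RIC 2 and -0.28 in DE+PFD+RIC 1. What the reads counted in the Lars2-like genes are, and their part in the other values, was not tested. Both mitochondrial ribosomal RNA genes were above the controls in all 3 DE+PFD libraries (mt-Rnr1 341 to 431 against 711 to 996 CPM, 1.11 ± 0.46; mt-Rnr2 848 to 1230 against 1356 to 2036 CPM, 0.84 ± 0.41), and DE was as high (1.15 ± 0.47 and 1.00 ± 0.42 against C).

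The clock genes Nr1d1 and Nr1d2 also set these libraries apart. Nr1d1, the clock repressor Rev-erb alpha whose RNA swings strongly over the day, was at 73.5, 88.9 and 72.5 CPM in C, at 3.10 and 4.55 CPM in DE+PFD 1 and 2 and at 90.5 CPM in DE+PFD 3. DE+PFD 3 was thus at control level and the other 2 far below it. Nr1d2, its paralog, was at 135, 21.6 and 24.3 CPM in C and at 12.4, 10.4 and 30.2 CPM in DE+PFD (-1.98 ± 0.86), and the output factor Dbp at 90.2, 13.9 and 14.7 against 5.15, 13.9 and 19.5 CPM (-2.57 ± 1.15). C 1 lay far above C 2 and C 3 in both Nr1d2 and Dbp and raises their control means. Dbp in DE+PFD 2 was level with C 2. In C 1 Arntl (Bmal1) was at 8.00 CPM, against 47.4 and 53.2 CPM in C 2 and C 3. Over the 19 clock genes the median was 0.12, with 10 above 0. Nr1d1 was as low in RIC 1 (4.97 CPM) and DE+PFD+RIC 1 (3.45 CPM), where the interferon level was -0.01 and -0.28. The labels give no hour of collection, and the part of the clock in the other values was not tested. The chaperone level did not follow this split: it was 0.35, 0.11 and 0.40 in DE+PFD 1, 2 and 3 and -0.34, -0.39 and -0.58 in C.

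**Figure D3:**
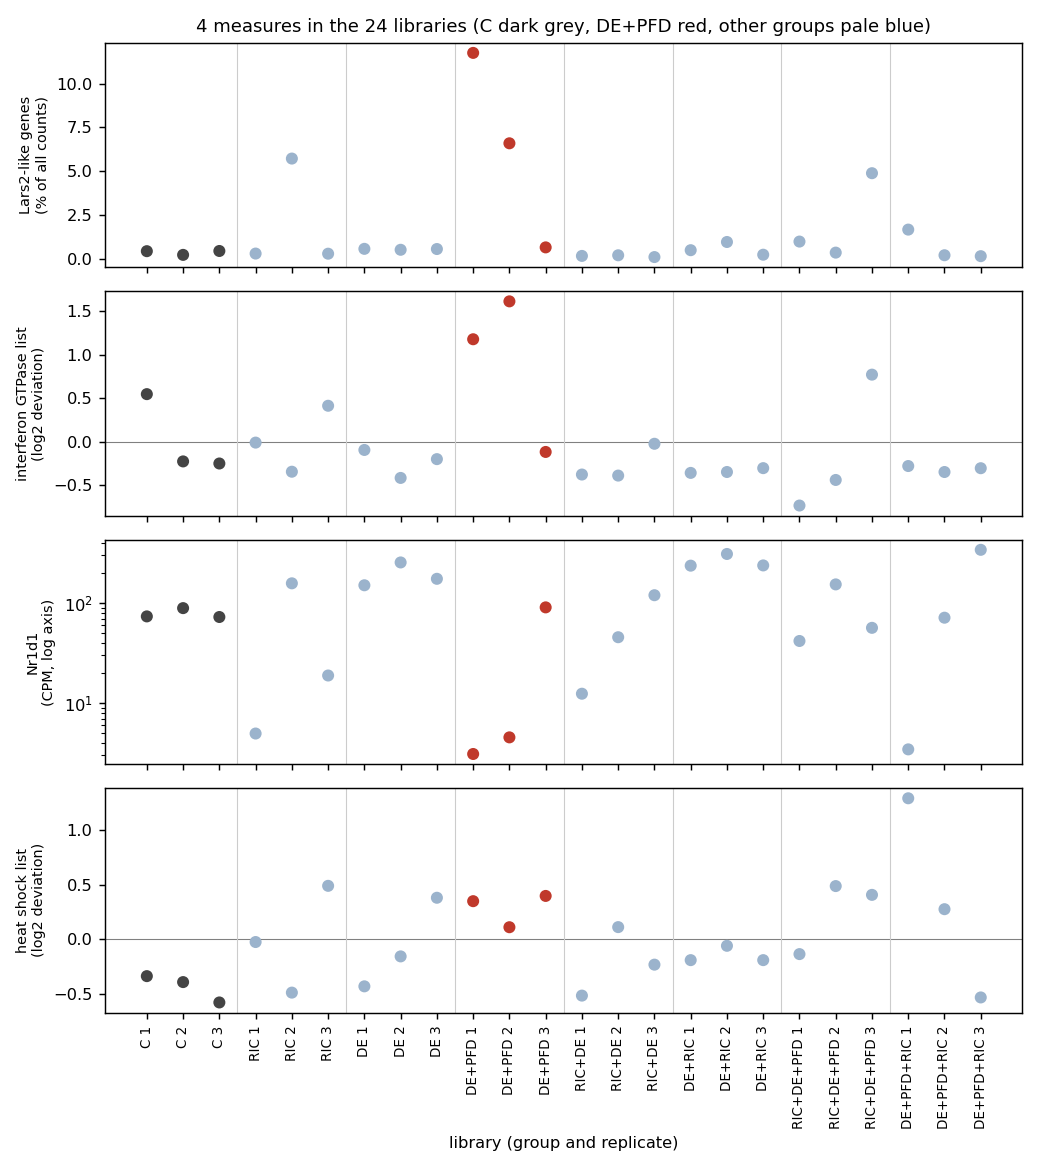
For each of the 24 libraries the panels show the share of counts in the 16 Lars2-like genes, the levels of the interferon GTPase and heat shock lists (median log2 deviation from the mean over 24 libraries) and Nr1d1 in CPM on a log axis. DE+PFD 1 and 2 are high in the first 2 panels and low in Nr1d1 while DE+PFD 3 is near C, and in the heat shock panel all 3 red points lie above all 3 dark points.

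B cell and plasma cell genes were lower in DE+PFD than in most controls. In bulk lung, fewer cells of a type and less RNA per cell cannot be told apart. All 17 B cell genes were below 0 (50.4% of all genes were), with a median of -0.66, but 1 of 17 (against 3.59% of all genes), Ms4a1, which encodes CD20, lay below all controls (25.6 to 39.5 against 14.2 to 25.5 CPM), and C 1 was low as well. Ighd, the constant region of surface IgD, was at 46.0, 110 and 81.1 CPM in C and at 31.3, 27.3 and 53.2 CPM in DE+PFD (-0.98 ± 0.48). Fcmr, the Fc receptor for IgM, had -0.86 ± 0.48 and Fcrla -0.77 ± 0.43. Without C 1, 14 of 17 genes lay below both remaining controls, against 12.8% of all genes. C 1 was the lowest control in this list, so this count follows in part from leaving it out. Without C 2, C 3 or DE+PFD 1 it was 1 of 17, without DE+PFD 2 it was 4 and without DE+PFD 3 it was 5. In those cases 5.803% to 10.05% of all genes lay on that side. In the March pair alone the median was -0.16, and over the October libraries it was -0.79.

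The plasma cell and immunoglobulin list had 11 of 14 tested genes below 0 and a median of -0.79, with 6 of 14 below all controls against 3.59% of all genes: Jchain, Igha, Derl3, Tnfrsf17, Ighg1 and Irf4. Jchain, which joins IgA and IgM units, was at 202, 131 and 166 CPM in C and at 120, 64.7 and 84.0 CPM in DE+PFD (-0.90 ± 0.50). Igha, the IgA heavy chain, was at 516, 858 and 992 against 378, 471 and 484 CPM (-0.79 ± 0.50). Ighg2c was at 287, 24.9 and 75.6 against 77.4, 9.36 and 12.1 CPM (-1.98 ± 0.96), and it was the only gene called, at -2.04 with an adjusted p of 0.0457, when the 6 libraries were fitted alone in edgeR with the replicate number as a block. In the same list, 2 of 14 lay above all controls, against 3.68% of all genes, among them Ighg3, at 1.19 to 1.86 CPM in C and 13.8, 3.75 and 2.07 CPM in DE+PFD. Immunoglobulin constant genes are near-identical in part and their counts uncertain. Against DE the medians were -1.02 for B cells and -1.36 for plasma cells, with 0 of 17 and 2 of 14 above 0, and no gene passed. DE 1 was far above the other libraries here: its summed B cell level was 2932 CPM against 817 and 1039 CPM in DE 2 and DE 3, 607 to 1244 CPM in C and 591 to 654 CPM in DE+PFD. T cell genes had a median of -0.11, and 3 of 22, Cd28, Foxp3 and Ctla4, lay below all controls, against 3.59% of all genes (Foxp3 1.05 to 1.81 against 0.535 to 0.908 CPM). At such levels Foxp3 had few reads in DE+PFD 2, the shallowest library.

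Genes of tissues that surround the airways were higher in some DE+PFD libraries. All 13 adipocyte genes were above 0, with a median of 1.37, and 5 of 13 lay above all controls, against 3.68% of all genes. Cidec, a lipid droplet protein also made by alveolar macrophages, was at 23.5, 24.5 and 27.6 CPM in C and at 97.3, 45.2 and 41.9 CPM in DE+PFD (1.25 ± 0.62). Thrsp, a regulator of lipogenesis, was at 12.5, 22.2 and 29.6 against 189, 44.4 and 59.3 CPM (1.94 ± 0.98), and Cfd (adipsin) at 59.5, 127 and 131 against 349, 225 and 244 CPM (1.37 ± 0.72). The adipokine Adipoq overlapped, at 7.32, 10.8 and 20.1 against 79.2, 16.3 and 41.5 CPM. The summed level of the list was 172 to 393 CPM in C and 448 to 1198 CPM in DE+PFD, and Ucp1, a marker of brown fat, had no count in C 2. DE against C had a median of 2.29 and DE+PFD against DE one of -0.89. How much tissue around the airways and vessels each sample held was not measured, and its part in these values was not tested.

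In the list of cartilage and large airway genes, all 12 tested of 15 were above 0 with a median of 1.36, but over the October libraries the median difference of mean log2 CPM was -0.12, with 4 of 12 above 0, against 2.23 in the March pair. In the fit of the October libraries alone the median was 0.032, and without DE+PFD 1 it was 0.26. The 3 of 12 members above all controls, against 3.68% of all genes, were those of airway basal cells, the stem cells of the conducting airway. Krt15 was at 0.496, 5.32 and 7.25 CPM in C and at 29.8, 9.10 and 33.8 CPM in DE+PFD (2.75 ± 1.32), Krt5 at 0.124, 1.21 and 1.51 against 9.76, 2.14 and 11.96 CPM (3.38 ± 1.60, unadjusted edgeR p 0.0472), and Trp63, their defining transcription factor, at 0.558, 0.483 and 0.325 against 2.65, 1.34 and 1.85 CPM (2.09 ± 0.86, unadjusted edgeR p 0.0240). The cartilage genes Col2a1 and Acan had no count in C 1, and Acan had none in DE+PFD 2 either. The summed level of the list was 247 to 274 CPM in C and 447, 256 and 428 CPM in DE+PFD 1, 2 and 3. Dcn, which fibroblasts also make, gave 197 of the 256 CPM in DE+PFD 2. The cartilage gene Comp had no count in DE+PFD 2 and 1.12 to 4.54 CPM in C. DE against C, which shares the C libraries, had a median of 1.27 with 12 of 12 above 0 (49.9% of all genes). DE+PFD against DE had a median of -0.16 with 3 of 12 above 0 (49.1% of all genes). In DE 1, 2 and 3 Krt5 was at 12.6, 1.49 and 2.46 CPM and Krt15 at 30.3, 6.72 and 6.50 CPM.

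Genes of the transitional, injury-linked alveolar epithelium had 14 of 15 above 0 and a median of 0.37, with 5 of 15 above all controls against 3.68% of all genes. Krt8, the keratin that marks this state, was at 220, 206 and 251 CPM in C and at 271, 296 and 366 CPM in DE+PFD (0.46 ± 0.23). Sfn, a 14-3-3 protein of stressed epithelium, was at 29.9, 38.7 and 38.5 against 63.6, 62.9 and 61.6 CPM (0.80 ± 0.39), the treated libraries being close to each other. Cdkn1a (p21, 43.8 to 108 against 110 to 138 CPM), Clu (clusterin, 205 to 279 against 280 to 311 CPM) and Tnip3 were the others. Krt17, a keratin of basal cells as well, had no count in C 1 and C 2 and 0.649 CPM in C 3, and was at 3.93, 0.268 and 3.48 CPM in DE+PFD. The basal cell genes given above were also higher in these libraries, and their part in this list was not tested. Alveolar type 1 and type 2 genes had medians of -0.01 and 0.05.

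Genes known to respond to exhaust were near their healthy levels or uneven among libraries. Cyp1a1, the classical target of the aryl hydrocarbon receptor, was at 153 CPM in C 1 and 294 CPM in DE+PFD 1, both from March, and at 7.13, 6.71, 10.7 and 4.68 CPM in C 2, C 3, DE+PFD 2 and DE+PFD 3. The high values fell in 1 library of each group. Among the other March libraries RIC+DE 3 had 137 CPM and RIC 1 had 6.68 CPM. Within October the mean log2 CPM differed by 0.03. In the list of 9 tested receptor targets the median was 0.16, with Lrat at -0.67 ± 0.39, Ahr at -0.32 ± 0.27 and Aldh3a1 at 0.39 ± 0.46. The Nrf2, glutathione and thioredoxin genes, the antioxidant defence, had 23 of 29 above 0 and a median of 0.14, with Me1 (0.53 ± 0.24), Gsta3 (0.50 ± 0.28) and G6pdx (0.31 ± 0.18) having the smallest p. Hmox1 was at 51.0, 39.9 and 44.8 against 57.6, 40.4 and 51.0 CPM, and Nqo1 at 31.3 and 30.5 CPM in the March libraries and 5.84 to 10.7 CPM in the October ones.

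For cytokines and chemokines of inflammation the median log2 fold change was 0.11, and 17 of 26 genes were above 0. Ccl7, which draws monocytes, was at 1.43, 0.242 and 0.325 CPM in C and at 2.50, 1.61 and 1.85 CPM in DE+PFD (1.55 ± 0.61, unadjusted edgeR p 0.0193). Ccl2, a close relative, had 1.36 to 1.51 against 1.63 to 2.65 CPM (0.52 ± 0.47), and Saa3 0.88 ± 0.55, while Ccl6 had -0.82 ± 0.50. Il6 (-0.30 ± 0.71), Il1b (-0.09 ± 0.46) and Tnf (0.57 ± 0.53) overlapped, the first and the last near or below 2 CPM in most libraries. Of 11 genes of mast cells, basophils and eosinophils, 3 lay above all controls (3.68% of all genes did) and 1, the eosinophil granule gene Prg2, lay below them (3.59%). Those above were mast cell genes: the tryptase Tpsb2 (0.186 to 1.30 against 1.87 to 5.44 CPM, 2.43 ± 1.02) and the chymases Mcpt4 (1.27 ± 0.70) and Cma1 (0.97 ± 0.64). All 3 were higher still in DE 1 and DE 3 (Tpsb2 24.5 and 9.67 CPM). In the hypoxia response, 6 of 18 genes lay above all controls, against 3.68% of all genes, with small differences: P4ha1 given above, Pgk1 (0.32 ± 0.18), Ldha (258 to 274 against 321 to 362 CPM, 0.34 ± 0.21), Egln3, Higd1a and Hk2. DE was at the same level in Ldha (301 to 348 CPM).

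**Figure D4:**
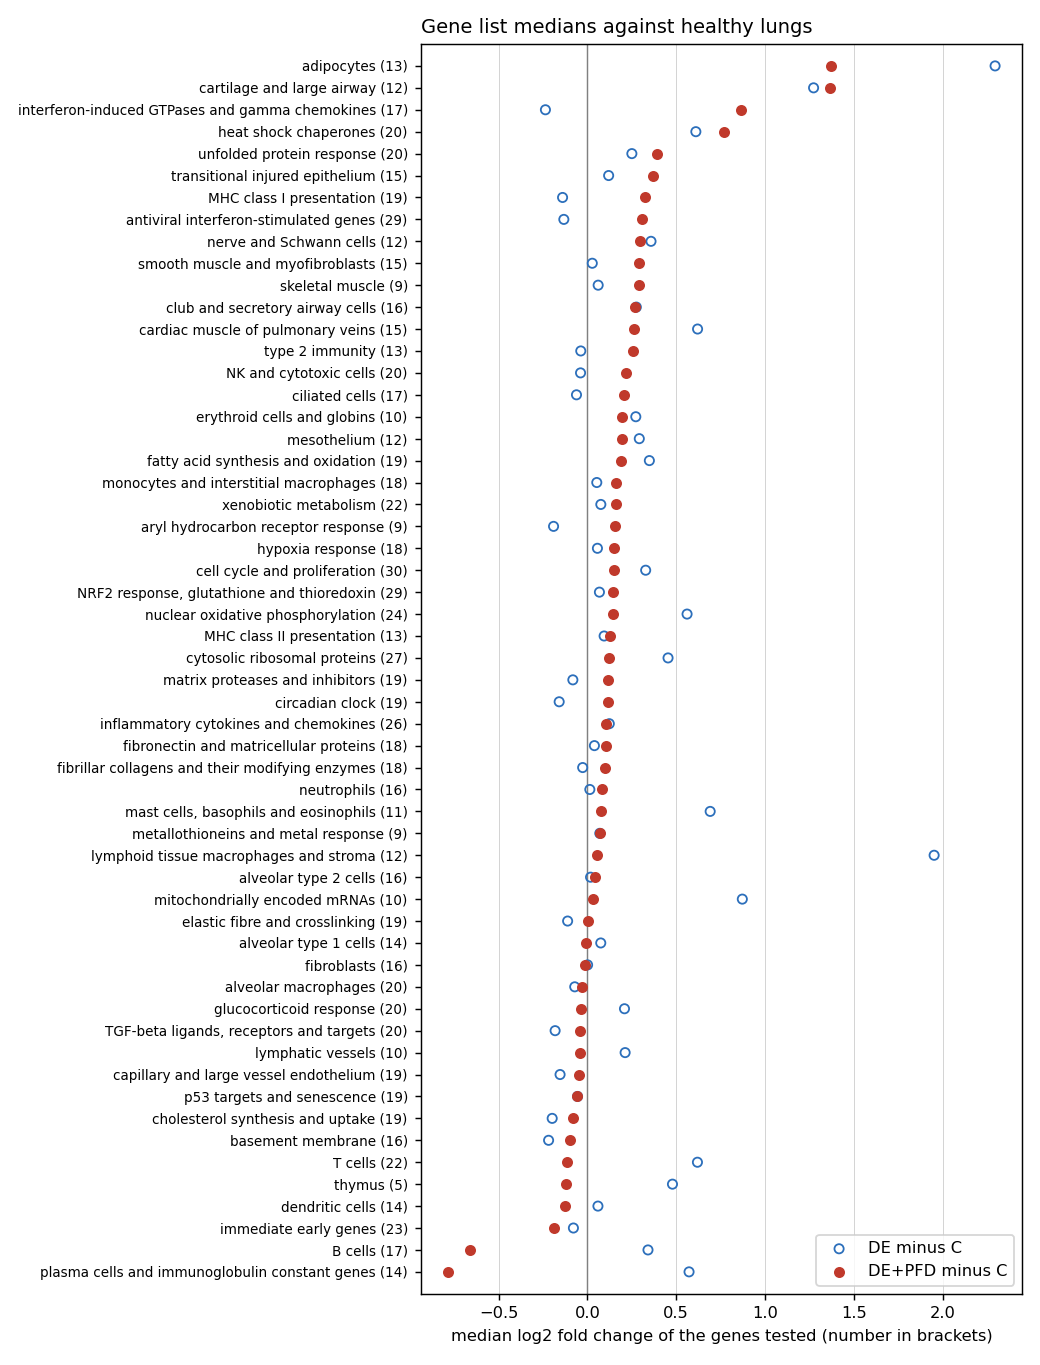
Each row is 1 of 56 gene lists, with the number of genes tested in brackets; red points are the median log2 fold change of DE+PFD against C and open blue circles that of DE against C, which shares the C libraries. Of the 56 medians 40 were above 0; those over 0.3 in size were 8 above and 2 below, the latter B cells and plasma cells.

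The remaining genes named by smallest p were spread over many functions. On the higher side, Tubb2b, a beta-tubulin, was at 5.52, 9.06 and 8.77 CPM in C and at 14.4, 13.4 and 16.8 CPM in DE+PFD (0.96 ± 0.26, unadjusted edgeR p 0.00153). The scaffold gene Homer2 had 0.79 ± 0.23, the zinc finger gene Zc3h8 0.65 ± 0.20, the spindle gene Misp 0.64 ± 0.20 and the anchoring protein gene Akap14 0.65 ± 0.21, each with all treated libraries above all controls. On the lower side, Esr2, the estrogen receptor beta, was at 3.84, 3.14 and 4.00 CPM in C and at 1.66, 1.60 and 1.74 CPM in DE+PFD (-1.12 ± 0.35, unadjusted edgeR p 0.00437). It lay below DE by 1.14 ± 0.37 as well (2.85 to 4.63 CPM), and the same DE+PFD libraries enter both contrasts. DE and C differed by 0.02 ± 0.34. Ms4a15, at 0.496, 1.45 and 1.08 CPM in C, was at 0.151 and 0.109 CPM in DE+PFD 1 and 3 and had no count in DE+PFD 2, too few reads for a fold change.

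Cxcr4, the receptor of the chemokine Cxcl12, was at 54.8, 79.2 and 73.9 CPM in C and at 29.1, 44.4 and 56.3 CPM in DE+PFD (-0.69 ± 0.21), and Cxcl14, another chemokine, at 164, 158 and 141 against 99.1, 129 and 87.5 CPM (-0.56 ± 0.18). The Polycomb gene Cbx7 (83.3 to 119 against 65.9 to 77.9 CPM, -0.55 ± 0.15) and the neuronal lipofuscinosis gene Cln6 (32.02 to 39.7 against 19.1 to 27.0 CPM, -0.67 ± 0.18) did not overlap, nor did Zfp703 (-0.63 ± 0.18), Taf5 of the TFIID complex (-0.59 ± 0.18) and the coactivator partner Cited2 (-0.52 ± 0.16). Sp2 (-0.67 ± 0.22), Hlx (-0.86 ± 0.28) and Tril (-0.62 ± 0.20) overlapped.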

How the data were processed

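Strand-specific poly(A) libraries were made from whole lung RNA, as the labels' protocols state. The submitters' processing notes name FastQC 0.12.1, fastp 0.23.4, STAR 2.7.11b, featureCounts, R 4.4.1, DESeq2 and the build GRCm39. The deposited table holds raw counts of reads for 78275 genes in 24 libraries, without scaling by the authors. No source used here gives the annotation release, strand setting or treatment of multi-mapped reads, so overlapping, antisense and near-identical genes are uncertain. Symbols came from an annotation of GRCm38 by gene identifier (51486 genes, holding 98.4% of counts).

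Tests used edgeR 4.0.16 in R 4.3.3: its filter on low counts left 17490 genes, scaling was TMM, and 1 quasi-likelihood model held all 24 libraries with a term per group and per label date (March, October, November). The November date is 1 library of another group, taken up wholly by its own term. No source used here says what the date marks. The threshold was a Benjamini-Hochberg adjusted p of 0.05. CPM are TMM scaled. RIC+DE+PFD 1 and DE 1 stood apart in principal components and were left out in 1 alternative. No 2 libraries of C or of DE+PFD were copies (chi-square per gene 5.77 to 94.5).

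Named genes were the 12 per direction with the smallest p at a mean of at least 1 CPM (none passed; predicted genes, pseudogenes and antigen receptor segments left out), 16 readout genes, and the 3 members with the smallest p of each list described; further members were chosen after their values were seen. The members and lists were chosen with earlier results of these data known. Lists (56, with 980 genes, 908 tested) are described by counts and medians. C and DE+PFD share replicate numbers: deviations of same-numbered libraries correlated at 0.32, 0.17 and 0.15. The first of these joins the March libraries, so number and date cannot be told apart there. The main model had no term for the numbers, and pairs entered only the alternatives with a replicate block. Alternatives were DESeq2 1.42.0, limma 3.58.1 voom with quality weights, other scaling, filters, batch terms, sample sets, the replicate block and leaving out each library. The test was also run on counts simulated from its own fitted means and spread with planted changes, and no statement here rests on that run. Promoter sequences are from RefSeq, GRCm38.p6. A few list members are not reported here by name.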

Additional observations from a re-analysis of the deposited data

How the results depend on the processing

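All p-values rest on 3 libraries a group, and DE+PFD 2, with 3906807 counts, limits the low genes. The count of genes past the threshold, 0 in the main test (350 at an unadjusted p under 0.05), was 98 without the filter on low counts (80 higher, 18 lower; 97 of them among the 17490 genes of the main test), 5 in DESeq2's Wald test (all 5 lower, 477 at an unadjusted p under 0.05) and 1, lower, with the replicate block on the 6 libraries alone. It was 0 in the other fits: DESeq2 size factors, limma with quality weights (1634 at an unadjusted p under 0.05), no batch term, a minimum of 1 CPM in 3 libraries, November treated as October, October libraries alone, the 6 libraries alone, without RIC+DE+PFD 1 and DE 1, the replicate block with and without the batch term, without any 1 of the 6 libraries, and without the Lars2-like genes. Pairing by the replicate block changed no other call. The causes of these shifts were not tested.

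The medians of the 10 lists described in most detail kept their sign in the fits run and in the March pair. Over the October libraries the median difference of mean log2 CPM was -0.12 for cartilage and large airway genes (4 of 12 above 0), against 1.36 in the main test. The chaperone median ran from 0.67 to 0.89. The unfolded protein median was 0.53 in the March pair and 0.28 without C 1. B cells were at -0.16 in the March pair, plasma cells at -0.38 there and at -0.49 with limma, and adipocytes at 2.97 in the March pair. The cartilage and airway median was 0.032 in the fit of the October libraries alone and 0.26 without DE+PFD 1. The March pair and the fit without the Lars2-like genes were added after the data were seen. Leaving out 1 library, medians ran from 0.71 to 0.89 for chaperones, from 0.28 to 0.41 for unfolded protein response, from -0.78 to -0.43 for B cells, from -0.77 to -0.53 for plasma cells, from 0.98 to 1.95 for adipocytes, from 0.26 to 1.99 for cartilage and large airway and from 0.48 to 1.20 for interferon GTPases.

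Some readout genes, none called, changed sign. In the October libraries Acta2 was at -0.13, Timp1 at -0.12, Spp1 at -0.37 and Il6 at 0.021, and Il1b was at 0.039 with limma. Leaving out 1 library, the log2 fold change ran from -0.17 to 0.58 for Acta2, from -0.13 to 0.55 for Timp1, from -0.21 to 0.43 for Spp1, from -1.53 to 2.18 for Cyp1a1, from -0.092 to 0.57 for Cyp1b1, from -0.36 to 0.93 for Nqo1, from -0.98 to 0.34 for Il6 and from -0.33 to 0.078 for Il1b.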
